A study of Mus musculus with 4 samples.

Results

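The cyclin-dependent kinase (CDK) inhibitors are a set of 7 mouse genes, Cdkn1a, Cdkn1b, Cdkn1c, Cdkn2a, Cdkn2b, Cdkn2c and Cdkn2d, chosen by name. They were followed through every probe set to which the array's platform annotation gives one of these genes and no other. That rule found 9 probe sets of 7 genes, out of 34945 probe sets and 18193 genes with a single symbol. Cdkn1a and Cdkn1b had 2 probe sets each and the other 5 genes 1 each. Expression was compared between hematopoietic stem cells (HSC), sorted as CD34(-)KSL cells, and multipotent progenitors (MPP), sorted as CD34(+)KSL cells, in the C57BL/6 background. KSL cells are a c-Kit-positive, Sca-1-positive, lineage-negative fraction that holds the earliest blood-forming cells. The groups thus shared the gate and differed in the surface protein CD34. There were 2 biological replicates per group. The labels say nothing of separate animals or of pooling, so a p-value speaks for the spread of these arrays, which may be technical. For each sample, RNA from the equivalent of 3000 cells went through 2 cycles of amplification and onto 1 Affymetrix Mouse Genome 430 2.0 array.

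CDK inhibitors are small proteins that bind CDKs, the kinases that move a cell through its division cycle. The CIP/KIP family, made of p21 (Cdkn1a), p27 (Cdkn1b) and p57 (Cdkn1c), binds complexes of a cyclin and a CDK. The INK4 family, made of p16 (Cdkn2a), p15 (Cdkn2b), p18 (Cdkn2c) and p19 (Cdkn2d), binds CDK4 and CDK6 and keeps D-type cyclins from activating them. By blocking CDKs, both families keep the retinoblastoma proteins in the form that holds E2F transcription factors inactive. In blood formation some of these genes are known for their part in the quiescence of stem cells, and Cdkn1c is an imprinted gene of which the maternal copy is expressed.

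Cdkn1c rose in HSC, Cdkn1a and Cdkn2c fell, and for Cdkn1b, Cdkn2b and Cdkn2d no difference passed the test. Cdkn2a lay below the measurable range on all 4 arrays. Signals are probe set intensities in arbitrary units, and the floor of an array is the highest signal among its 27 probe sets for bacterial transcripts, 13.6 to 16.9 units. The labels do not say whether any of those transcripts were added to the RNA. Tests were made with limma on log2(intensity + 6.01) and called at a Benjamini-Hochberg adjusted p under 0.05 over 27022 probe sets. Of the 9 probe sets, 8 from 6 genes passed the filter on dim probe sets. Of these 8, 4 were called, 1 higher and 3 lower in HSC, where 10.6% of all tested probe sets were called, 5.96% higher and 4.65% lower. By genes, 3 of 6 were called, against 13.6% of 12382 genes by their brightest tested probe set. The median log2 difference (HSC minus MPP) of the 8 was 0.36, against 0.11 over all tested probe sets. HSC and MPP values did not overlap for 7 of the 8, but that held for 54.6% of all tested probe sets, so it says little with 2 arrays a group.

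**Figure D1:**
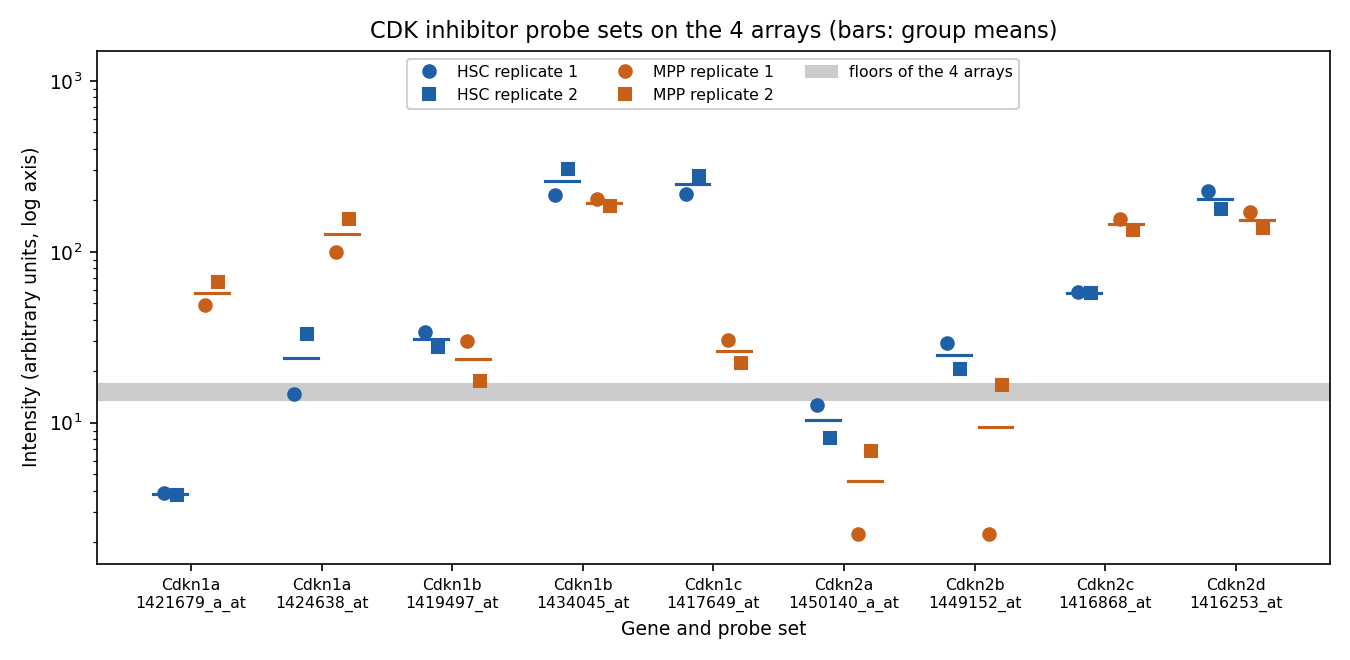
Intensity of the 9 CDK inhibitor probe sets (arbitrary units, logarithmic axis) on the 2 HSC arrays (blue) and the 2 MPP arrays (orange), with short bars for group means and a grey band for the floors of the 4 arrays. Cdkn1c is high on both HSC arrays, Cdkn1a and Cdkn2c on both MPP arrays, and all Cdkn2a points lie under the band.

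Some facts of the arrays touch these values. HSC replicate 2 had a 3' to 5' actin signal ratio of 9.42, against 4.99 to 5.26 on the other arrays, so member results are also given without it. Of the genes behind the sort, Cd34 fell in HSC and Kit rose, Kit with a call in only 6 of 12 alternatives. Ly6a, which encodes Sca-1, had no tested probe set. Of other surface markers of these cell types, Flt3 and Cd48 fell in HSC, and Slamf1 and Procr rose. Some markers of other blood cells differed between the groups as well. Summed intensity over 7 granulocyte genes was 127 to 279 units in HSC and 3983 to 4828 in MPP, over 5 erythroid genes 993 to 1654 and 75.5 to 90.9, over 6 megakaryocyte genes 1973 to 1977 and 399 to 548, and over 6 macrophage and monocyte genes 178 to 213 and 479 to 737. Sums over 5 endothelial genes were 257 to 272 and 134 to 140. The granulocyte sum rested on Mpo, the only 1 of 4 tested granulocyte genes called, and the other 6 summed to 53.1 to 136 units in HSC and 116 to 170 in MPP, which overlap. Csf1r was likewise the only 1 of 5 tested macrophage and monocyte genes called, and the other 5 summed to 147 to 159 and 185 to 197. Without Car1, the other 4 erythroid genes summed to 321 to 439 units in HSC and 66.6 to 73.2 in MPP. Without Vwf, the other 5 megakaryocyte genes summed to 794 to 1053 in HSC and 385 to 544 in MPP. Calls higher in HSC numbered 3 of 4 tested erythroid, 3 of 6 megakaryocyte and 2 of 4 endothelial genes. Over all tested genes, 7.71% were called higher. The calls of Gp9 (megakaryocyte) and of Kdr and Tie1 (endothelial) were kept in 9 of 13, 9 of 13 and 6 of 12 alternatives. Pecam1, another endothelial gene, stood at a log2 difference of -1.02 without a call. Alas2, Camp, C1qa, Cd79a and Cdh5, markers of erythroid cells, granulocytes, macrophages, B cells and endothelium, were under the floor on all arrays. Of 6 T and NK cell genes, 5 were under the floor on all arrays, and 4 B cell genes summed to 174 to 204 in HSC and 149 to 205 in MPP. In sorted bulk samples, more cells of a type and more RNA per cell cannot be told apart, and the part of these markers in the results below was not tested.

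Cdkn1c encodes p57, the largest of the CIP/KIP proteins. Its probe set read 218 units on HSC replicate 1, 279 on HSC replicate 2, 30.4 on MPP replicate 1 and 22.4 on MPP replicate 2. Every array was above the floor, and both HSC arrays were far above both MPP arrays. The means were 248 ± 42.8 in HSC and 26.4 ± 5.63 in MPP (SD, n = 2 each), a ratio of 9.42. The log2 difference was 2.97 (SE 0.27, 95% interval 2.38 to 3.57, limma adjusted p = 9.06e-05), or 7.86-fold with an interval of 5.21 to 11.9. Folds of this kind include the pseudocount of 6.01 and so understate the change of dim probe sets. Probe sets of like mean level, in the sixth of 10 level classes, had a median log2 difference of 0.12. Without HSC replicate 2 the log2 difference was 2.80, and the call was kept in all 14 alternatives, between 2.43 and 3.15.

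Among the genes closest to Cdkn1c over the 4 arrays, by the Euclidean distance between log2 values centred on each gene's mean, were Fscn1 and Itsn1, out of 11659 compared. Fscn1, which encodes the actin bundling protein fascin, read 221 and 334 units in HSC and 33.2 and 26.5 in MPP, at a distance of 0.18. Itsn1, which encodes an endocytic scaffold protein, lay at 0.25. With 4 arrays such a likeness is a description of these samples.

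Cdkn1a encodes p21, a target of the tumour suppressor p53. The brighter probe set, 1424638_at, read 14.6 units on HSC replicate 1, 33.0 on HSC replicate 2, 100 on MPP replicate 1 and 155 on MPP replicate 2. Both HSC arrays were below both MPP arrays, and HSC replicate 1 was under its floor. The log2 difference was -2.20 (SE 0.37, 95% interval -3.02 to -1.39, limma adjusted p = 0.00368), so that MPP were 4.61-fold higher. The second probe set, 1421679_a_at, read 3.90 and 3.77 units in HSC, under the floor on both arrays, and 48.7 and 66.9 in MPP. Its log2 difference was -2.68 (SE 0.43, adjusted p = 0.00299). Against the floor, the level in HSC was at least 2.77-fold lower. The probe sets fell together, but they share the RNA and are not replicates. Without HSC replicate 2 the log2 differences were -2.66 and -2.67, both called. The call of 1424638_at was kept in all 14 alternatives (-2.66 to -1.67), and that of 1421679_a_at ended without MPP replicate 2 (-2.47, adjusted p = 0.0643). The genes closest to Cdkn1a over the 4 arrays were Nlrc3, Cst7 and Arpp21, at distances of 0.16 to 0.32. Of these, Cst7, which encodes the protease inhibitor cystatin F, read 17.4 and 36.3 units in HSC and 145 and 182 in MPP.

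Upstream sequences are shown for Cdkn1a and for Cdkn2c, the INK4 gene that also fell in HSC, from the RefSeq promoter table (GRCm38.p6). It held 6 of the 7 genes and 9 start sites. Cdkn1c was the gene without an entry. Each sequence is the 250 bases before a transcription start, written 5′ to 3′ on the gene's strand. Capitals mark matches, on either strand, to the GC box, GGGCGG, and to the TATA motif, TATAA. They also mark the CCAAT box, an E2F motif, spelled TTTCGCGC or TTTGGCGC, and any stretch with at most 1 mismatch to the full p53 consensus. In the windows printed here no matches overlapped.
Cdkn1a, upstream start, chr17:29090729-29090978, plus strand: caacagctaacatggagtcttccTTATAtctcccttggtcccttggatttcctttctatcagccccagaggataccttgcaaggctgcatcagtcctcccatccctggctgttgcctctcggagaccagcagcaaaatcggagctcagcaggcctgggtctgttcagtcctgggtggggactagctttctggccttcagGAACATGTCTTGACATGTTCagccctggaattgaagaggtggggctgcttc
Cdkn1a, downstream start, chr17:29093519-29093768, plus strand: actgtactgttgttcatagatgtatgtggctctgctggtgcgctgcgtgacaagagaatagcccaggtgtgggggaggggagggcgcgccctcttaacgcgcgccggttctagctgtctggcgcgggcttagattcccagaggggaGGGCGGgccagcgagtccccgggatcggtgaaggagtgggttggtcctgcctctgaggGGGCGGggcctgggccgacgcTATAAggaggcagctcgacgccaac
Cdkn2c, upstream start, chr4:109666757-109667006, minus strand: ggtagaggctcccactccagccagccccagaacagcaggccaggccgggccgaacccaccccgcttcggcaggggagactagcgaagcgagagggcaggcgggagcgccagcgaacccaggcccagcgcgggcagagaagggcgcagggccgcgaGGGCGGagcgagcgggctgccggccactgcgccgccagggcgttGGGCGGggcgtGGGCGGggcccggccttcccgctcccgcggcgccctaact

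The Cdkn1a starts differ in these windows. The upstream one holds a match to the p53 consensus, 51 to 32 bases before the start, of a kind found in 25 of 32851 windows of this length (0.0761%), and no GC box. The downstream one holds 2 GC boxes, found in 32.7% of windows, and a TATA motif 25 bases before the start. The upstream one also holds a TATA motif, on the other strand and 227 bases before the start, and 22.8% of windows hold one. The downstream window has 19 CpG dinucleotides against 2 in the upstream window and a median of 6 over all windows. The Cdkn2c window holds 3 GC boxes and 29 CpG, and a second Cdkn2c start has a window with none of these motifs. CCAAT was found in 33.8% of windows and in those of Cdkn1b and Cdkn2d, and the E2F motif in 0.654% and in none of the 9 member windows. A match is a description of letters, and the array values do not tell which Cdkn1a start was used.

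Cdkn1b encodes p27, which is destroyed through the ubiquitin ligase subunit Skp2. The brighter probe set, 1434045_at, read 215 units on HSC replicate 1, 303 on HSC replicate 2, 203 on MPP replicate 1 and 185 on MPP replicate 2. The groups did not overlap, but the 2 HSC arrays were further apart from each other than HSC replicate 1 was from the MPP arrays. The log2 difference was 0.39 (SE 0.22, adjusted p = 0.323), with a 95% interval of -0.10 to 0.88, or 0.931-fold to 1.84-fold. The dimmer probe set, 1419497_at, read 33.9 and 27.6 units in HSC and 29.9 and 17.4 in MPP, where the groups overlapped. Its log2 difference was 0.34 (SE 0.40, adjusted p = 0.655, interval -0.54 to 1.21). Neither was called in any alternative, and both stayed above 0, down to 0.03 for 1419497_at without MPP replicate 2. Without HSC replicate 2 the log2 differences were 0.14 and 0.46. Cdkn1b was above the floor on every array, and the upper end of the interval of its brighter probe set, 1.84-fold, lies below the lower end of that of Cdkn1c, 5.21-fold. The difference between these members was not itself tested.

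**Figure D2:**
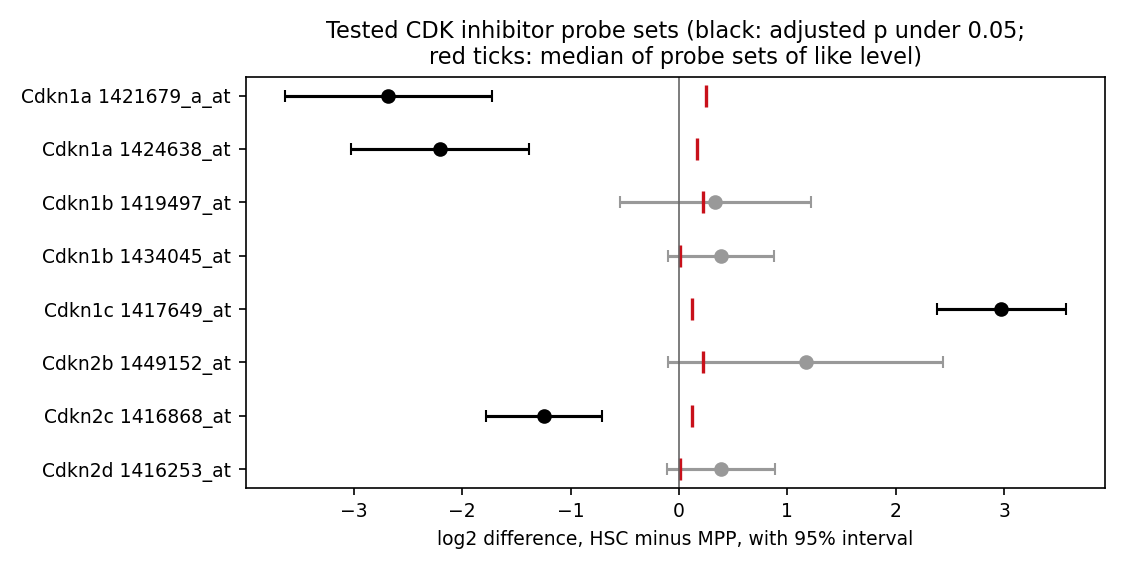
Log2 difference (HSC minus MPP) with its 95% interval for the 8 tested CDK inhibitor probe sets; black marks an adjusted p under 0.05 and red ticks the median of all tested probe sets in the same level class. Cdkn1c stands at 2.97, the Cdkn1a probe sets at -2.68 and -2.20 and Cdkn2c at -1.24, and the intervals of the other 4 include 0.

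Among the INK4 genes, Cdkn2c, which encodes p18, was the member whose difference passed the test. It read 58.3 units on HSC replicate 1, 57.2 on HSC replicate 2, 156 on MPP replicate 1 and 134 on MPP replicate 2. The HSC arrays were nearly equal and lay well below both MPP arrays. The log2 difference was -1.24 (SE 0.24, 95% interval -1.78 to -0.71, adjusted p = 0.00868), a level 2.37-fold higher in MPP. Without HSC replicate 2 it was -1.23 and still called. The call was kept in 13 of 14 alternatives and ended without MPP replicate 1 (-1.14, adjusted p = 0.0765). Its closest genes over the 4 arrays were Kif23, Nt5dc2 and Cdca2, at distances of 0.085 to 0.090. Kif23 encodes a kinesin motor of cell separation and Cdca2 a protein of dividing cells' chromosomes. Cdca2 read 107 and 105 units in HSC and 273 and 257 in MPP.

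Cdkn2d, which encodes p19, read 228 units on HSC replicate 1, 179 on HSC replicate 2, 170 on MPP replicate 1 and 137 on MPP replicate 2. HSC replicate 2 and MPP replicate 1 were close to each other. The log2 difference was 0.39 (SE 0.23, adjusted p = 0.331, 95% interval -0.11 to 0.89), or 0.925-fold to 1.85-fold. It was not called in any of 14 alternatives, and stood at 0.56 without HSC replicate 2.

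Cdkn2b, which encodes p15 and is known as a target of TGF-beta signalling, was among the dimmest tested probe sets. It read 29.3 and 20.6 units in HSC, above the floor, and 2.22 and 16.6 in MPP, where replicate 1 was under the floor. The log2 difference was 1.17 (SE 0.57, adjusted p = 0.245, 95% interval -0.10 to 2.44). It moved to 0.44 without MPP replicate 1 and to 1.90 without MPP replicate 2, without a call (adjusted p = 0.788 and 0.146), and to 1.37 without HSC replicate 2 (adjusted p = 0.259).

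Cdkn2a encodes p16 and, in another reading frame, ARF, which acts on Mdm2 and is no CDK inhibitor. The probe set annotation does not tell these products apart. It read 12.6 and 8.13 units in HSC and 2.23 and 6.85 in MPP, each under the floor of its array, and it did not pass the filter on dim probe sets. No fold is given where both groups are under the floor. Fitted with no filter, its adjusted p was 0.531. Cdkn2a and Cdkn2b are neighbours on chromosome 4 with no other protein-coding gene between them in the RefSeq table of GRCm38.p6.

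The genes around the inhibitors were read from the same fit, with each gene represented by its brightest tested probe set. Against these counts, 7.71% of all tested genes were called higher in HSC and 5.9% lower. The kinases and cyclins that the inhibitors act on were mostly lower in HSC. Of 11 tested, 6 fell and 1 rose, with a median log2 difference of -0.83. The 6 were Cdk1, Cdk4, Cdk6, Ccne2, Ccna2 and Ccnb2, of which Cdk4 was no longer called without MPP replicate 1 (-0.80, adjusted p = 0.0972) or without MPP replicate 2 (-0.86, adjusted p = 0.0739). Cdk6, a partner of the D-type cyclins and a target of the INK4 proteins, read 1009 and 1355 units in HSC and 4146 and 3943 in MPP, 3.44-fold higher there (log2 difference -1.78, SE 0.17, adjusted p = 1.35e-04). Ccnb2 and Ccna2, cyclins of mitosis and of DNA synthesis, were 5.08-fold and 4.87-fold higher in MPP. Ccnd2, a D-type cyclin, was the one that rose, from 1472 and 1901 units in MPP to 2706 and 2785 in HSC (log2 difference 0.71, SE 0.17, adjusted p = 0.0204). Its call was kept in 7 of 12 alternatives and ended without MPP replicate 1 (0.53, adjusted p = 0.308), without MPP replicate 2 (0.90, adjusted p = 0.0502). Equal array medians ended it too (0.48, adjusted p = 0.0904). Of 7 tested Ccnd2 probe sets, 4 were called higher and 1 was below 0. No call was made for Ccnd1, Ccnd3, Cdk2 and Ccne1, whose differences ran from -0.58 to 0.39.

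Of 13 pocket proteins (the retinoblastoma family), E2F factors and their DP partners, 4 fell and none rose, with a median of -0.38, while without HSC replicate 2, 1 rose. E2f8 and E2f7, repressor members of the E2F family, were 6.72-fold and 3.44-fold higher in MPP. E2f8 read 118 and 126 units in HSC and 855 and 851 in MPP. Rbl1, a pocket protein, was 2.85-fold higher in MPP, and 1 of its 3 tested probe sets was called. Tfdp1 completed the 4, and its call ended without MPP replicate 2 (-0.94, adjusted p = 0.0546). Rb1 itself stood at 0.08 (adjusted p = 0.846).

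Of 16 tested genes for turnover and binding partners of the inhibitors, 4 fell and none rose, with a median of -0.01. Without MPP replicate 1, 2 fell. Dtl, which guides the ligase that destroys p21, was 3.39-fold higher in MPP, and all 5 of its tested probe sets were called. Cks1b, the cofactor with which Skp2 recognises p27, was 1.96-fold higher in MPP. Pcna, the replication clamp that p21 binds, was 2.00-fold higher in MPP, and its call ended without MPP replicate 1 (-0.93, adjusted p = 0.0511). Skp2 completed the 4, with 199 and 322 units in HSC and 537 and 432 in MPP (log2 difference -0.91, SE 0.24, adjusted p = 0.0353). This call was lost without HSC replicate 1 (-0.57, adjusted p = 0.0803), without MPP replicate 1 (-0.76, adjusted p = 0.198) or without MPP replicate 2 (-1.07, adjusted p = 0.0527) and after quantile normalization (-0.88, adjusted p = 0.0566). Of 5 tested Skp2 probe sets, all were below 0 and 4 were called.

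Among 30 tested transcriptional regulators of the inhibitors, 5 rose and 2 fell, with a median of 0.05. Trp53, which encodes p53, was on this list but had no tested probe set. Foxo1, a forkhead factor known to activate Cdkn1b, rose 2.35-fold, from 71.0 and 113 units in MPP to 199 and 241 in HSC (log2 difference 1.23, adjusted p = 0.0125). That call was lost without MPP replicate 1 (0.92, adjusted p = 0.0958). Cbx7, a Polycomb protein that represses the Cdkn2a locus, rose 2.45-fold, and the call ended without MPP replicate 2 (1.08, adjusted p = 0.101). Ets2 rose 1.79-fold, with a call in 6 of 13 alternatives, and lost it without HSC replicate 2 (0.67, adjusted p = 0.117), without MPP replicate 1 (0.84, adjusted p = 0.146) or without MPP replicate 2 (0.83, adjusted p = 0.158). It was also lost when array medians were made equal (0.60, adjusted p = 0.112). Egr1 and Smad3 completed the 5, and the number that rose was 2 without HSC replicate 2, 1 without MPP replicate 1 and 2 without MPP replicate 2. Of 2 tested Smad3 probe sets, 1 was called higher and 1 was below 0. Of 2 tested Cbx7 probe sets, both were above 0 and 1 was called. With equal array medians 2 regulators rose and 4 fell. Ezh2, the Polycomb methyltransferase, fell, with MPP 3.09-fold higher (adjusted p = 2.57e-04, called in all 13 alternatives). Gfi1, a repressor, was the other that fell (log2 difference -1.06, adjusted p = 0.0321), and had no call when HSC replicate 2 (-0.75, adjusted p = 0.0881), MPP replicate 1 (-0.96, adjusted p = 0.164) or MPP replicate 2 (-1.16, adjusted p = 0.0823) was left out. Without either MPP array 1 regulator fell.

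**Figure D3:**
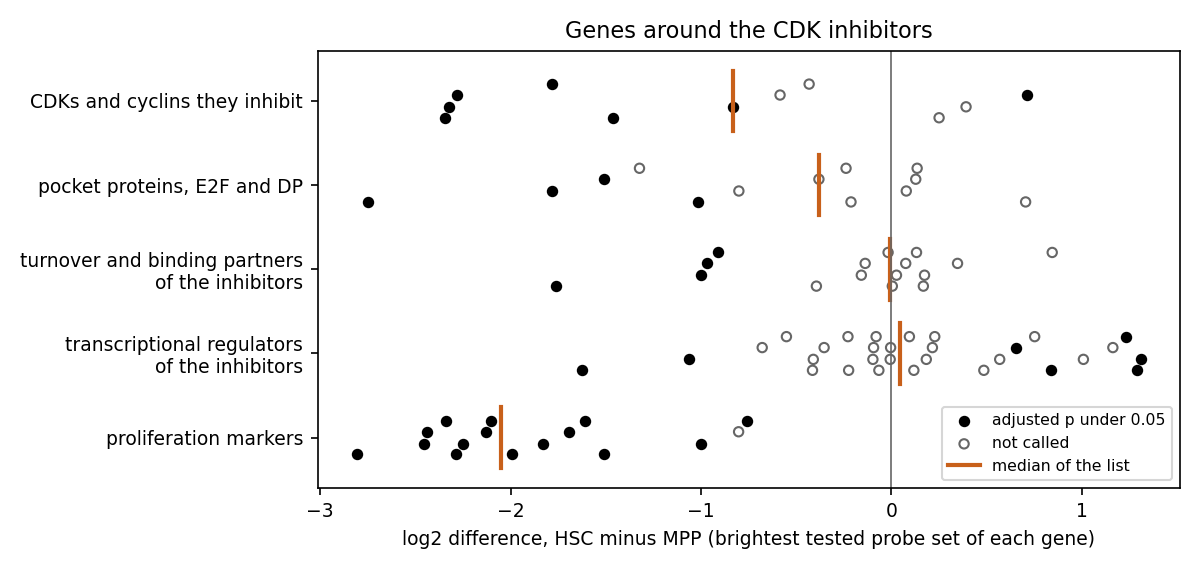
Log2 difference (HSC minus MPP) of each tested gene in 5 lists around the CDK inhibitors, by its brightest tested probe set; filled points had an adjusted p under 0.05 and orange bars are list medians. Medians run from -2.05 for proliferation markers and -0.83 for CDKs and cyclins to 0.05 for transcriptional regulators.

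Genes that mark dividing cells fell in HSC beside Cdkn1a and Cdkn2c. Of 16 tested proliferation markers, 15 fell and none rose, with a median of -2.05. With no trend in the prior variance, 12 fell. Pcna was counted here and also among the turnover and binding partners. Mki67, Top2a and Cdc20 had the smallest p. Mki67 read 555 and 546 units in HSC and 3127 and 2520 in MPP. Tyms was the member without a call (-0.80, adjusted p = 0.194). The part of the share of dividing cells in the differences of the inhibitors was not tested.

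**Figure D4:**
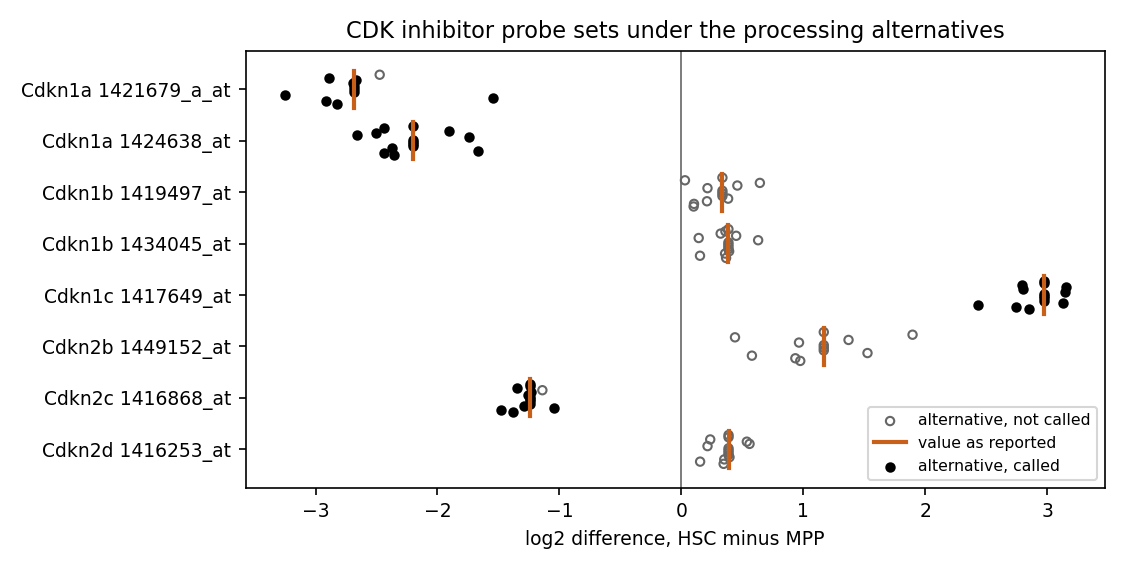
Log2 difference (HSC minus MPP) of the 8 tested CDK inhibitor probe sets as reported (orange bars) and under each processing alternative (points, filled where called). No probe set changes sign, and Cdkn1c stays between 2.43 and 3.15. Cdkn1a 1421679_a_at spreads most, from -3.25 to -1.54, and Cdkn2b spreads most among those above 0, from 0.44 to 1.90.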

How the data were processed

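The deposited values are probe set intensities on a linear scale, scaled by the authors so that the mean without the lowest and highest 2% was about 100.0 on each array, as the deposited values show. Per the labels' protocols the RNA was amplified in 2 cycles, which favours 3' ends; the signal software is not given here. Of 45101 probe sets, 64 controls were left out. Names came from the platform annotation, updated through gene identifiers with a RefSeq table of GRCm38.p6. Values were analysed as log2(intensity + 6.01), 0.25 of the median of all values. The 40% of probe sets with the lowest mean level were not tested. HSC and MPP were compared in limma 3.58.1 (R 4.3.3), 2-sided, with a trend on mean level and no covariates, with 2 residual and 8.48 prior degrees of freedom. 4 arrays limit the precision. The fit was tested on simulated data with independent normal noise, which checks the computation and not the calls of single probe sets. Pearson's r was 0.949 between HSC arrays, 0.966 between MPP arrays and 0.903 to 0.916 between groups. The members and lists were chosen with earlier results of these data known. All members were named, and of each list the called genes, up to 3 in each direction by p, with others named to complete a count or as list members without a call. Of 139 list genes, 21 had no tested probe set and entered no count of calls: 14 were too dim for the filter, and 7 had no probe set with that name alone in the annotation used here. Of the genes most like a member, 1 is not reported here. Alternatives covered normalization, pseudocount, filter, prior variance, replicate block, probe set choice and each array left out.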

Additional observations from a re-analysis of the deposited data

How the results depend on the processing

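No tested member probe set changed sign in any alternative. Cdkn1c and 1 Cdkn1a probe set were called in all 14, and 1 higher and 2 to 3 lower member probe sets were called throughout. Leaving out each array gave log2 differences of -2.89 to -2.47 for Cdkn1a 1421679_a_at and -1.35 to -1.14 for Cdkn2c, each losing 1 call. The pseudocount at the median of all values moved Cdkn1a 1421679_a_at to -1.54 (called). Over all probe sets, 1611 were higher and 1257 lower. The counts were 1020 and 2379 with equal array medians, 917 and 780 with no filter, and 633 and 374 with no trend in the prior variance. They ranged from 1026 to 2011 higher and 568 to 1908 lower with an array left out. Quantile normalization moved the median difference of all tested probe sets from 0.11 to -0.01, and equal array medians to -0.13. With replicate number as a block, 2525 were higher. It changed no member call. Over the tested probe sets, r was 0.027 between the replicate differences of the 2 groups. This value does not settle whether arrays of equal number were handled together, which was not tested. Over the 5 lists 6 genes rose, but 2 with equal medians, 1 with no filter, none (0) with no trend, and 1 to 7 with an array left out. The cause of these shifts was not tested. Values near the floor (Cdkn2a, Cdkn2b, Cdkn1a in HSC) are limited by signal over background.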
